A study of Mus musculus with 32 samples.

Results

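The genes described here make, carry, sense and destroy retinoic acid, in mouse hair follicles, interfollicular epidermis and skin organoids. The 8 members, of 19970 gene names in the count files, are Cyp26b1, Crabp2, Aldh1a3, Rdh10, Dhrs9, Stra6, Rarg and Rara, and their rows were taken by gene name. A member with no row in a file was counted as 0. The 32 libraries, of bulk RNA from Bl/6 mice, were made by CEL-seq2, a method that reads polyadenylated transcripts from their 3′ ends. The levels below are CPM, a gene's counts per 1000000 counts of its library without spike-in rows.

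Tissue gave 3 libraries of anagen hair follicles, which are follicles in the growth phase, 3 of follicles in mixed anagen and telogen (resting) phases, and 3 of interfollicular epidermis. The epidermal cells had been sorted for Itga6 and Sca1, a selection for basal keratinocytes, whereas the follicles are labelled only as tissue. Organoids are 3-dimensional cultures of skin cells, harvested after 7 days. Unpassaged organoids (passage 0) gave 1 library for each of 5 media: forskolin alone, forskolin with Fgf10, forskolin with Fgf1, forskolin with an inhibitor of TgfB, and that inhibitor alone. Forskolin raises cyclic AMP, Fgf10 and Fgf1 are fibroblast growth factors, and the labels do not name the inhibitor. At passages 7 to 12, called early here and reached within 3 months, there were 4 libraries each for forskolin plus Fgf10 and forskolin plus inhibitor. Forskolin plus Fgf1 and inhibitor alone had 2 each. At passages 23 to 30, called late and reached within 6 months, the 6 libraries were all grown in forskolin plus Fgf1. No passaged group had forskolin alone, so in early organoids the inhibitor replaced a growth factor and was not simply added.

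Retinoic acid is made from vitamin A (retinol) in a pair of oxidation steps, and it acts in the nucleus on retinoic acid receptors, which bind DNA together with retinoid X receptors. Stra6 is a membrane receptor through which retinol enters cells. Rdh10 and Dhrs9 are dehydrogenases that oxidise retinol to retinal, and Aldh1a3 oxidises retinal to retinoic acid. Crabp2 carries retinoic acid to the receptors Rara and Rarg, and Cyp26b1 is a cytochrome P450 that oxidises retinoic acid for removal. Retinoids are known to influence keratinocyte differentiation and the hair cycle, and Rarg is the main retinoic acid receptor of mouse epidermis.

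All 8 members are annotated as protein-coding in GENCODE M21 (GRCm38, the assembly also called mm10), and the whole-gene coordinates follow. Stra6 lies on the plus strand of chromosome 9 at 58063788 to 58153996. Rdh10 lies on the plus strand of chromosome 1 at 16105774 to 16133734, Dhrs9 on the plus strand of chromosome 2 at 69380445 to 69404533, and Aldh1a3 on the minus strand of chromosome 7 at 66390890 to 66427517. Crabp2 lies on the plus strand of chromosome 3 at 87948666 to 87953376 and Cyp26b1 on the minus strand of chromosome 6 at 84571414 to 84593908. Rarg lies on the minus strand of chromosome 15 at 102234938 to 102257517 and Rara on the plus strand of chromosome 11 at 98927818 to 98974942. Stra6 overlaps Ccdc33 on the other strand, which had 20 counts over all 32 libraries.

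The promoter sequences of Cyp26b1 and Stra6 are shown because these members had the largest responses to the TgfB inhibitor in the unpassaged pair. They come from RefSeq (GRCm38.p6), whose table of promoters held 12 windows for 5 of the 8 members and none for Crabp2, Aldh1a3 or Rdh10. Each window runs from 250 bases before a start site to 50 after it. Printed are only the bases that lie before the exons annotated by GENCODE, 5′ to 3′ on the gene's strand. They are chr6:84593909-84594060 (minus strand) for Cyp26b1 and chr9:58133825-58134016 (plus strand) for Stra6, whose window was taken among 4 because it held the most matches. Capitals mark the letters CAGAC, the core of sites bound by Smad proteins, which here stand on the other strand and so read GTCTG. A further match of the Stra6 window lies after its start and is not printed.
Cyp26b1: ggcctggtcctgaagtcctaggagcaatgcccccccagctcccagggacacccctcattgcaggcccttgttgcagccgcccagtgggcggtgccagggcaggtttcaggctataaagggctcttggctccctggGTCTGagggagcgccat
Stra6: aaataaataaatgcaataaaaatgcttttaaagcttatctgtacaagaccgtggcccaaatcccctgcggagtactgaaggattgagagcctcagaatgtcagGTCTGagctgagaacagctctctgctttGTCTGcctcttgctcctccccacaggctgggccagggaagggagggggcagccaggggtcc

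CAGAC was searched on both strands and occurred in 7 of the 12 member windows, including 3 of the 4 of Stra6, against 49.6% of all 32851 windows of that length. The core of a cyclic AMP response element, TGACG, occurred in 3 of the 12 windows and in 20.8% of all windows. The direct repeats DR1, DR2 and DR5 that retinoic acid receptors bind were in 0 of the 12, and in 0.222%, 0.268% and 0.0974% of all windows. A 5-letter motif is so common that its presence describes these sequences and does not mark a site.

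Library totals ranged from 412582 to 3351435 counts. The sorted epidermis, with 469839 to 739531, was shallower than the follicles (1385192 to 3351435), so a low count in epidermis is less precise. Basal keratinocyte markers (7 genes) summed to 30430 to 32760 CPM in sorted epidermis, 349 to 2411 in anagen follicles and 7405 to 13850 in mixed follicles. Markers of inner root sheath and hair matrix (9 genes) summed to 41560 to 61540 CPM in anagen and 10120 to 21880 in mixed follicles. In sorted epidermis they summed to 1228 to 1400, with Krt25, Krt27, Krt28, Krt71, Krt72, Krt73 and Tchh at 0. The sorted epidermis thus carried basal markers, and the follicles carried inner root sheath and hair matrix markers. Markers of outer root sheath and upper follicle (7 genes) did not follow the follicle label. They summed to 836.5 to 2013 CPM in epidermis, 70.3 to 291 in anagen and 779 to 1823 in mixed follicles. Against epidermis, 4 were lower and 0 higher in anagen, and 2 were higher and 1 lower in mixed follicles. Each tissue group came in count tables with a gene list of its own, so effects of the table and of the tissue cannot be told apart.

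**Figure D1:**
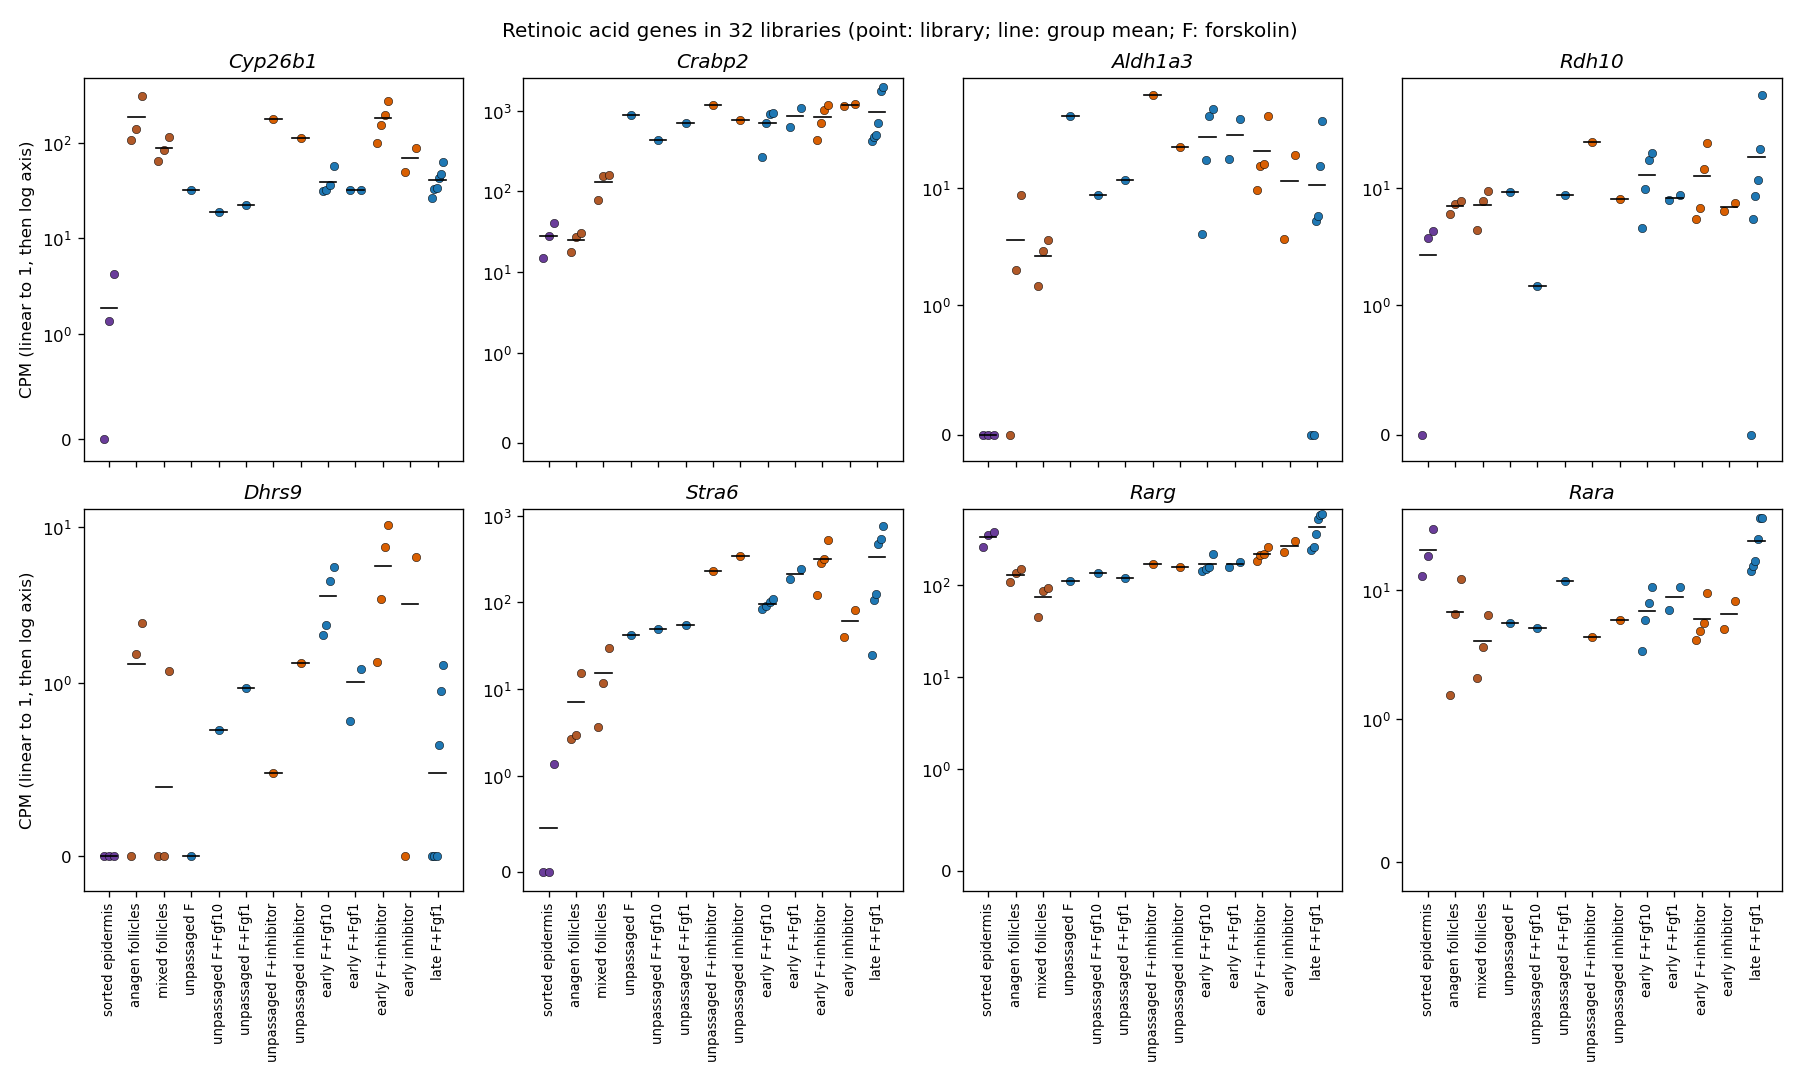
CPM of the 8 members in each of 32 libraries (vertical axis linear up to 1 and logarithmic above), with 1 point per library and a line at the group mean (purple for sorted epidermis, brown for follicles, blue for organoids without and orange for organoids with the TgfB inhibitor). Cyp26b1 is near 0 in sorted epidermis and highest in anagen follicles and in organoids given forskolin with the inhibitor.

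Follicles were first compared with interfollicular epidermis, which asks how the retinoid genes differ between these compartments of the skin. Cyp26b1 was far higher in both kinds of follicle, and it was the only member that passed the test in each. Its carrier and uptake partners, Crabp2 and Stra6, passed in mixed follicles, and the receptor Rarg was lower there. Of 7 members tested, 1 was called in anagen follicles (1 higher, none lower), where 34.2% of 10843 genes tested were called. In mixed follicles 4 were called, 3 higher and 1 lower, where 30.3% of all genes were called. Dhrs9 was too low to be tested. The median log2 fold change of the 7 was 2.10 in anagen and 3.46 in mixed follicles, against 0.15 and 0.08 over all genes. The filter on low counts also took in the organoids of this fit, where Aldh1a3, Rdh10 and Stra6 had higher means than in any tissue group. Aldh1a3 had a result in 11 of 13 alternative runs, and Rdh10 and Stra6 each in 12. None of them passed the filter when the compared groups were fitted alone. The Stra6 call in mixed follicles thus rests on a filter met through other groups. Rdh10 and Stra6 did pass it in the tissue libraries alone. The medians of the 7 include folds over an epidermal level at or near 0. With upper quartile scaling in place of TMM, the share of calls that were higher went from 56.6% to 45.9% in anagen and from 60.9% to 47.4% in mixed follicles, and the medians over all genes became -0.09 and -0.19. In bulk RNA, fewer cells of a type and less RNA per cell cannot be told apart.

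Cyp26b1, which removes retinoic acid, was at 4.26, 1.35 and 0 CPM in the 3 epidermis libraries, or 3 counts in all. It was at 141, 314 and 106 CPM in anagen follicles and at 83.8, 116 and 65.0 in mixed follicles. Every follicle library was far above every epidermis library. The log2 fold change was 7.12 ± 0.61 (SE, edgeR quasi-likelihood test, adjusted p = 1.41e-06) for anagen and 6.65 ± 0.61 (adjusted p = 1.61e-06) for mixed follicles. Between the follicle groups, which overlapped, it was 0.47 ± 0.39 (adjusted p = 0.537). With so few epidermal counts the fold itself is imprecise. Inner root sheath and hair matrix markers moved with it, with 8 of 9 higher in each kind of follicle and 1 lower in mixed follicles. So did 5 of 5 hair shaft and 3 of 3 melanocyte markers. Fibroblast markers were higher too, 2 of 5 in anagen and 5 of 5 in mixed follicles, as were sebaceous markers, 1 and 4 of 4. Basal keratinocyte markers were lower, 7 of 7 in anagen and 4 of 7 in mixed follicles, as were antigen presenting cell markers, 4 and 1 of 4. The part of these lists in the Cyp26b1 result was not tested.

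Stra6, the retinol receptor, had 1 count over the 3 epidermis libraries (0, 1.35 and 0 CPM). It was at 2.92, 2.63 and 15.4 CPM in anagen and 30.1, 11.6 and 3.61 in mixed follicles. All 6 follicle libraries were above the epidermis, and their levels spread widely. The log2 fold change was 5.44 ± 1.72 in mixed follicles (edgeR adjusted p = 0.0228) and 4.24 ± 1.84 in anagen follicles (adjusted p = 0.0828). The mixed call was lost without mixed replicate 1 (adjusted p = 0.0856) or any 1 epidermis library (0.0616 to 0.0715). In the compared groups alone Stra6 did not pass the filter and was not tested. The anagen difference passed with no filter on low counts (0.0105), with DESeq2 (0.0156) and in the 9 tissue libraries alone (0.0492).

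The enzymes of synthesis were low in all tissue. Aldh1a3 had no counts in epidermis, 8.75, 1.97 and 0 CPM in anagen and 2.87, 3.58 and 1.44 CPM in mixed follicles. Against a floor of 3 counts over the epidermis group, it was at least 2.22-fold higher in anagen and at least 1.71-fold higher in mixed follicles, and neither difference passed the test (adjusted p = 0.134 and 0.121). Both passed with no filter on low counts (0.0490 and 0.0376). Anagen replicate 1 held 18 of the 21 anagen counts, and without it the pooled 0.865 CPM was under the floor. The bound for mixed follicles was lost without epidermis replicate 2, and that for anagen follicles was then 1.28-fold. Rdh10 was at 4.26, 0 and 3.70 CPM in epidermis, 7.29, 5.92 and 7.70 in anagen and 9.31, 7.76 and 4.33 in mixed follicles. All 6 follicle libraries were above the epidermis by a small margin, with log2 fold changes of 2.10 ± 1.17 (adjusted p = 0.176) and 2.57 ± 1.16 (adjusted p = 0.103). Rdh10 passed in the 9 tissue libraries alone in both (0.0438 and 0.0151), and in mixed follicles also with no filter (0.0462). Dhrs9 was at 0 in epidermis, which over the group allows up to 1.71 CPM, and had at most 5 counts in any follicle library.

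Crabp2, the retinoic acid carrier, separated the follicle groups. It was at 27.7, 14.9 and 40.7 CPM in epidermis, 17.5, 30.2 and 27.2 in anagen follicles, and 78.1, 157 and 157 in mixed follicles. Anagen and epidermis overlapped (log2 fold change 0.50 ± 0.75, adjusted p = 0.641), whereas mixed follicles were above epidermis in each library (3.46 ± 0.79, adjusted p = 0.00308). Anagen was below mixed follicles by -2.96 ± 0.75 (adjusted p = 0.0201), the 1 member called there, where 6.63% of all genes were called and 5.42% were lower. That call was lost without anagen replicate 1 (adjusted p = 0.0934), anagen replicate 2 (0.0938) or mixed replicate 3 (0.101). Fibroblast markers (7 genes) moved with it, at 34.9 to 511 CPM in anagen, 890 to 1922 in mixed follicles and 70.2 to 131 in epidermis, where Col1a1, Col3a1 and Lum were at 0. In anagen against mixed follicles 4 of 5 tested fibroblast markers and 5 of 7 markers of outer root sheath and upper follicle were lower. Red blood cell markers (3 genes) summed to 41.6 to 138 CPM in mixed follicles, at most 0.486 in anagen and at most 1.35 in epidermis, and the 2 tested were higher in mixed follicles than in either. Sebaceous gland markers (6 genes) summed to 68.6 to 148 CPM in mixed follicles, 201 to 341 in anagen and 3.70 to 9.47 in epidermis. Of these, 4 of 4 tested were higher in mixed follicles than in epidermis, and 1 of 4 was higher in anagen. Although the anagen sums were larger than the mixed, 1 of the 4 was lower in anagen than in mixed follicles and 0 were higher. Their median log2 fold change there was -3.53. Their part in the Crabp2 result was not tested.

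The receptors had lower estimates in follicles. Rarg was at 349, 264 and 383 CPM in epidermis, 108, 150 and 135 in anagen and 86.7, 94.3 and 44.8 in mixed follicles, with no overlap in plain CPM. The fit, however, rescales libraries for their composition (TMM factors 1.29 to 1.36 in epidermis and 0.411 to 1.21 in follicles), and on that scale anagen follicles at 89.5 to 237 CPM overlapped epidermis at 206 to 292. The log2 fold change was -1.10 ± 0.38 in mixed follicles (adjusted p = 0.0378) and -0.71 ± 0.38 in anagen follicles (adjusted p = 0.163). The mixed call was lost on leaving out any 1 of the 6 libraries (adjusted p 0.0502 to 0.109) or with no filter on low counts (0.0849). In anagen follicles Rarg passed without anagen replicate 3 (-1.23, 0.0269). Rara was at 12.8, 29.7 and 18.5 CPM in epidermis, 12.2, 6.58 and 1.54 in anagen and 6.45, 2.09 and 3.61 in mixed follicles. In plain CPM no follicle library exceeded the lowest epidermis value. On the rescaled CPM, anagen follicles at 2.69 to 10.08 overlapped epidermis at 9.435 to 23.25, and mixed follicles at 2.66 to 9.16 did not. Neither difference passed (-1.26 ± 0.55, adjusted p = 0.0851, and -1.35 ± 0.59, adjusted p = 0.0925). Rara passed in anagen follicles without anagen replicate 1 (-1.79, adjusted p = 0.0421), and in mixed follicles in the compared groups alone (-1.55, 0.0216) or with upper quartile scaling (-1.64, 0.0475).

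**Figure D2:**
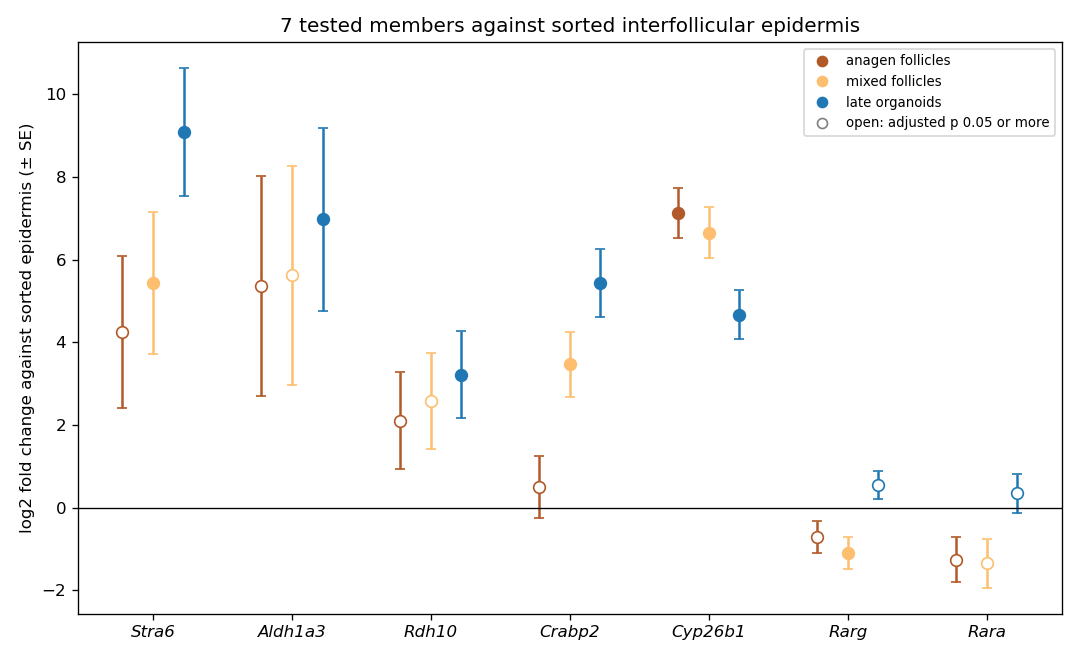
Log2 fold change (± SE, edgeR) of the 7 tested members against sorted epidermis, for anagen follicles, mixed follicles and late organoids, with open points where the adjusted p was 0.05 or more. Cyp26b1 is filled in all 3 comparisons while the estimates of Rarg and Rara lie below 0 for both kinds of follicle.

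The other genes of the pathway, 58 in 8 lists of which 56 had a row and 34 were tested, moved both ways. In anagen follicles 7 were higher and 9 lower than in epidermis, and in mixed follicles 7 were higher and 4 lower. Of all genes, 19.4% were higher and 14.8% lower in anagen and 18.5% and 11.9% in mixed follicles, where the pathway's share of calls was near that background. Their median log2 fold change was -0.14 and -0.02. In the uptake and storage list, 2 of 4 rose in anagen and 1 of 4 in mixed follicles: Rbp7, a cellular retinol-binding protein, had log2 fold changes of 4.88 ± 1.42 (adjusted p = 0.0128) and 4.86 ± 1.43 (adjusted p = 0.0157). The Rbp7 calls were lost without anagen replicate 3 (0.155) or epidermis replicate 2 (0.0632), and in mixed follicles without epidermis replicate 1 (0.0557) or 2 (0.0727). Lipe, a lipase that can also cleave retinyl esters, was at 1.85 to 2.70 CPM in epidermis and 14.6 to 18.4 in anagen follicles, where it rose under each alternative run (3.40 ± 0.90, adjusted p = 0.00713). Fabp5, a fatty acid-binding protein that can also carry retinoic acid, was at 70.2 to 94.3 CPM in epidermis, 1306 to 1579 in anagen and 694 to 1045 in mixed follicles. It rose in both, under each alternative run (4.80 ± 0.82, adjusted p = 0.000285, and 4.56 ± 0.81, adjusted p = 0.000474).

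Of 12 tested genes of retinol and retinal conversion, 1 rose and 5 fell in anagen follicles, and 3 rose and none fell in mixed follicles. The alcohol dehydrogenase Adh7 was at 78.8 to 189 CPM in epidermis and 0 to 3.40 in anagen follicles (log2 fold change -5.91 ± 1.03, edgeR adjusted p = 0.000346). Adh1 was at 86.9 to 165 CPM in epidermis, 5.13 to 32.1 in anagen and 175 to 257 in mixed follicles, so it fell in one kind of follicle (-2.69 ± 0.59, adjusted p = 0.00361) and rose in the other (1.81 ± 0.56, adjusted p = 0.0257). The rise of Adh1 was lost without mixed replicate 2 or 3, without epidermis replicate 1 or 3 (0.0635 to 0.097), or with upper quartile scaling (0.057). Rdh1 rose in mixed follicles (4.05 ± 1.12, adjusted p = 0.0109) and Rdh9 in both, by 2.60 ± 0.82 in anagen (adjusted p = 0.0210) and 2.37 ± 0.84 in mixed follicles (adjusted p = 0.0398). Rdh1 lost its call without epidermis replicate 2 (0.059). Rdh9 lost its call in anagen follicles without anagen replicate 3 or epidermis replicate 1 or 3 (0.0606 to 0.0905), and in mixed follicles on leaving out any 1 library but epidermis replicate 2 (0.0678 to 0.132), with upper quartile scaling (0.0668) or with no filter on low counts (0.0620). Adh1, Adh7, Dhrs4 and Rarres1 were the 4 pathway genes lower in anagen than in mixed follicles, by -4.50 ± 0.63, -4.39 ± 1.02, -1.88 ± 0.37 and -4.32 ± 1.22, and none was higher. Of these, Adh7 lost its call without anagen replicate 2 (0.0678) and Rarres1 on leaving out any 1 library but mixed replicate 1 (0.0564 to 0.161).

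Of 3 tested receptors outside the members, Rxra and Rxrb, the partners of the retinoic acid receptors, fell in both kinds of follicle. Rxra was at 44.4 to 125.6 CPM in epidermis, 4.11 to 13.1 in anagen and 8.66 to 14.9 in mixed follicles, and the log2 fold changes were -2.74 ± 0.45 (adjusted p = 0.000199) and -1.80 ± 0.44 (adjusted p = 0.00484). Rxrb was at 25.9 to 36.2, 2.56 to 6.80 and 0.716 to 3.28 CPM (-2.14 ± 0.57, adjusted p = 0.00752, and -2.94 ± 0.63, adjusted p = 0.00205). The coactivator Crebbp was at 14.9 to 44.7 CPM in epidermis and 45.5 to 57.9 in mixed follicles. It rose there under each alternative run (2.13 ± 0.43, edgeR adjusted p = 0.00129). The TMM factors were 0.411 to 0.791 in mixed follicles and 1.29 to 1.36 in epidermis. That rescaling makes the fold larger than in plain CPM, as for the rise of Adh1 in mixed follicles. Of 5 tested genes of the retinoic acid-responsive list, none rose and 2 fell in anagen follicles. Rarres1 fell by 4.49 ± 1.23 on the log2 scale (edgeR adjusted p = 0.00877), and Dhrs3, a retinal reductase that is also on the conversion list, by 1.67 ± 0.61 (adjusted p = 0.0424). The Dhrs3 call was lost on leaving out any 1 library but epidermis replicate 3 (0.0539 to 0.16). In mixed follicles none of the 5 passed edgeR's test, with 0 at an unadjusted p under 0.05 and 0 by DESeq2.

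**Figure D3:**
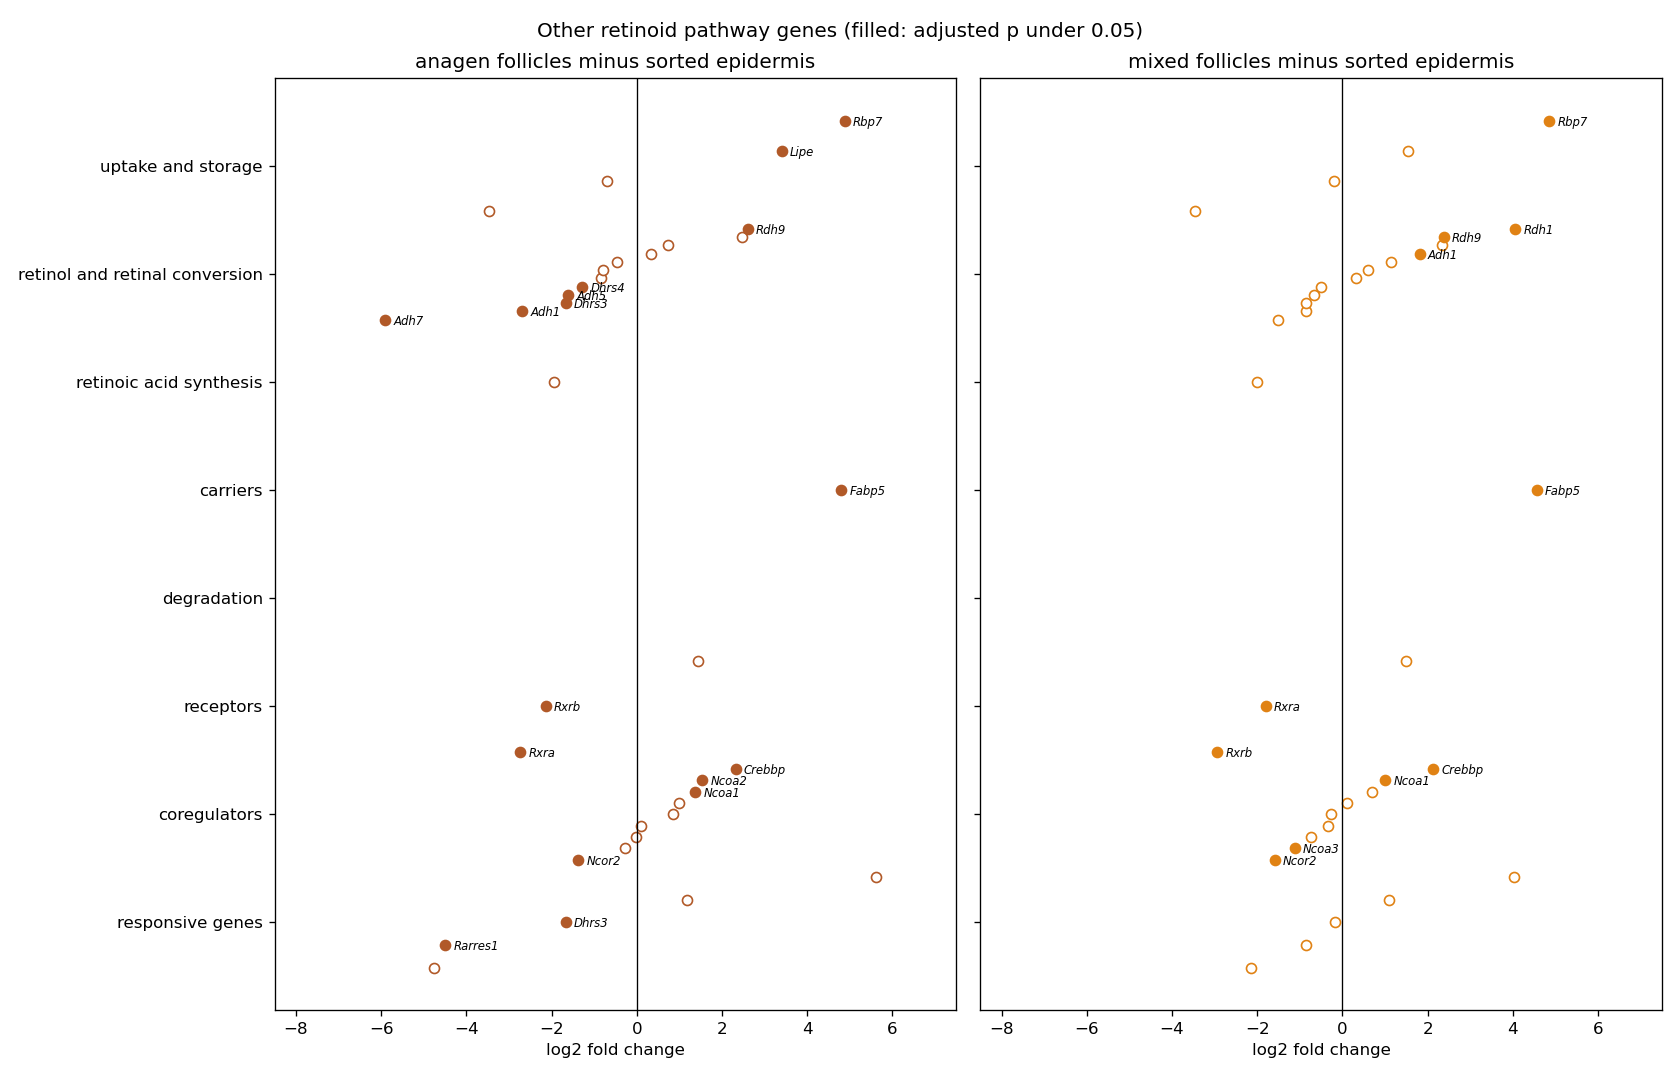
Log2 fold change (edgeR) of the tested pathway genes outside the members, by list, for anagen and mixed follicles against sorted epidermis, with filled and named points where the adjusted p was under 0.05 (Dhrs3 stands in 2 lists). Rbp7 and Fabp5 lie to the right and Rxra and Rxrb to the left in both panels.

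Late organoids, which grew for months in forskolin and Fgf1, were compared with the sorted epidermis to see what long culture keeps. Of 7 members tested, 5 were higher and none lower, where 12.2% of all genes were higher and 9.53% lower (21.8% called in all). Aldh1a3 and Rdh10, at or near 0 in epidermis, did not pass the filter when the compared groups were fitted alone and were not tested there. The median log2 fold change of the 7 was 4.66, against 0.04 over all genes. The uptake receptor Stra6, the enzymes Rdh10 and Aldh1a3, the carrier Crabp2 and the degrading enzyme Cyp26b1 were higher, and Rarg and Rara were not called. Suprabasal markers summed to 3417 to 3502 CPM in epidermis and 97.1 to 22250 in late organoids, where 2 of 7 were higher. Genes of outer root sheath and upper follicle summed to 837 to 2013 CPM in epidermis and 1051 to 5286 in late organoids, with 3 of 7 higher and 4 lower. Fibroblast-list genes summed to 70.2 to 131 and 204 to 1116 CPM, with 1 of 5 tested higher. Basal markers (2 of 7 lower) summed to 30430 to 32760 and 15770 to 31550 CPM, and antigen presenting cell markers (3 of 4 lower) to 211 to 375 and 2.60 to 119. The part of these lists in the results was not tested.

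Stra6 was at 758, 465, 540, 24.7, 125 and 106 CPM in late replicates 1 to 6, against at most 1.35 in epidermis. Every late library was above epidermis, and replicates 1, 2 and 3 stood well above the other 3, which came in other count tables than they did. The log2 fold change was 9.08 ± 1.55 (edgeR adjusted p = 0.000512). Crabp2 ranged from 424 to 1958 CPM with a median of 593 (log2 fold change 5.44 ± 0.82, adjusted p = 0.000182). Cyp26b1 was at 43.1, 63.0, 32.9, 33.8, 26.3 and 46.7 CPM, a narrow range above the epidermis (4.66 ± 0.59, adjusted p = 3.45e-05).

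Aldh1a3 was at 0, 0, 37.4, 5.21, 15.5 and 5.71 CPM in the late libraries, at least 12.2-fold above the floor of the epidermis group when they were pooled. Late replicate 3 held 117 of the 137 counts, and without it the bound was 3.40-fold. Without 1 epidermis library, whose counts set the floor, it was 7.03-fold to 8.91-fold. The call (adjusted p = 0.0344) was lost without it (0.0693), without late replicate 5 (0.0518) or without any 1 epidermis library (0.0906 to 0.114). Rdh10 was at 5.39, 0, 61.7, 11.7, 21.7 and 8.57 CPM (3.21 ± 1.05, adjusted p = 0.0364). Its call too was lost without late replicate 3 (adjusted p = 0.0867), late replicate 5 (0.0542) or any 1 epidermis library (0.0793 to 0.162). Rarg at 241 to 599 CPM and Rara at 13.9 to 36.4 CPM overlapped epidermis (0.55 ± 0.34, adjusted p = 0.264, and 0.34 ± 0.47, adjusted p = 0.651).

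Of the 34 pathway genes tested, 8 were higher and 6 lower in late organoids. Fabp5 was at 1477 to 11500 CPM (log2 fold change 6.60 ± 0.87, edgeR adjusted p = 4.71e-05). Rbp2, an intestinal-type retinol-binding protein, was at 2.42 to 45.6 CPM (4.61 ± 1.16, adjusted p = 0.0121), and Hbegf, a growth factor on the responsive list, was at 29.1 to 136 (4.40 ± 0.73, adjusted p = 0.000395). Adh1 had no count in the 6 late libraries and was at least 282-fold lower (148-fold without late replicate 3, the deepest), and Adh7 fell by 4.55 ± 0.76 on the log2 scale (adjusted p = 0.000438). Krt4, a keratin of mucosal epithelia on the responsive list, ranged from 0 to 38940 CPM among the late libraries (11.26 ± 3.53, adjusted p = 0.0317), and its call was lost without any 1 epidermis library (0.0994 to 0.12) or in the compared groups alone (0.0787). That of Rbp2 was lost without epidermis replicate 1 (0.0547) or 2 (0.0592).

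The TgfB inhibitor was then compared with growth factors among early organoids in forskolin. Cyp26b1 was the member that rose. Its level was 198, 153, 276 and 98.6 CPM with forskolin and the inhibitor, against 36.4, 57.1, 32.1 and 31.3 with forskolin and Fgf10. All 4 inhibitor libraries were above all 4 Fgf10 libraries. The log2 fold change was 2.05 ± 0.34 (4.13-fold, edgeR adjusted p = 0.00677), and the call was kept on leaving out any 1 of the 8 libraries (adjusted p 0.00386 to 0.0379). Fgf10 replicate 1 came in another count table than the other 7 libraries, and without it the change was 1.98 (adjusted p = 0.036). It was the 1 member called of 8 tested, where 0.575% of 9919 genes were called, 0.262% higher and 0.313% lower.

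Against forskolin and Fgf1 (32.4 and 32.4 CPM), Cyp26b1 in the same 4 inhibitor libraries was 5.39-fold higher (log2 fold change 2.43 ± 0.45, edgeR adjusted p = 0.0173). It was again the 1 member called, where 0.595% of genes were called, 0.181% higher and 0.413% lower. With 2 libraries in that group, the call was lost without Fgf1 replicate 1 (adjusted p = 0.341), Fgf1 replicate 2 (0.206) or inhibitor replicate 3 (0.0516). Fgf1 replicate 1 came in another count table than Fgf1 replicate 2 and the inhibitor libraries, and without it the log2 fold change was 2.39. The 2 comparisons, against Fgf10 and Fgf1, share the inhibitor libraries and are not independent of each other.

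Stra6 was at 286, 318, 531 and 123 CPM with forskolin and the inhibitor, 84.8 to 109 in the 4 libraries with Fgf10, and 242 and 184 with Fgf1. Each inhibitor library exceeded each Fgf10 library, but the spread was wide, and the inhibitor and Fgf1 libraries overlapped. The difference from Fgf10 was 1.57 ± 0.65 (adjusted p = 0.536), and it passed when these 8 libraries were fitted alone (0.0435). The difference from Fgf1 was 0.52 ± 0.80 (adjusted p = 1.0).

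The other 6 members did not pass. Crabp2 was at 426 to 1172 CPM with the inhibitor against 265 to 934 with Fgf10 (log2 fold change 0.13, interval -0.99 to 1.26). Rarg was at 185 to 261 and 145 to 222 CPM (0.28, -0.26 to 0.83), and Rara at 4.09 to 9.41 and 3.36 to 10.5 CPM (-0.27, -1.04 to 0.51). Aldh1a3 (9.54 to 41.3 and 4.01 to 47.5 CPM), Rdh10 (5.45 to 24.2 and 4.51 to 19.9) and Dhrs9 (1.36 to 10.2 and 2.01 to 5.53) overlapped as well, with intervals of -2.04 to 1.12, -1.47 to 1.37 and -0.71 to 1.97. These 95% intervals take in changes of 2-fold for each of them but Rarg. None of the 32 tested pathway genes passed edgeR's test against Fgf10, with 1 at an unadjusted p under 0.05 and none by DESeq2, and none passed against Fgf1 (0 unadjusted, 0 by DESeq2).

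Sums of some marker lists differed with the medium in these organoids. Fibroblast-list genes, which include matrix genes, summed to 7.27 to 14.99 CPM with forskolin and the inhibitor, 26.2 to 187 with Fgf10 and 276 to 540 with Fgf1, with Lum at 0 in all 3, and 1 of 2 tested was lower in each comparison. Genes of outer root sheath and upper follicle summed to 1935 to 2464, 652 to 1340 and 668 to 955 CPM, with 1 of 6 tested higher and 1 lower against Fgf10 and none called against Fgf1. Suprabasal markers summed to 2907 to 29630, 16880 to 27210 and 7010 to 10200 CPM, with Flg at 0 and 0 of 7 called in either comparison. Basal keratinocyte markers summed to 22090 to 27500 CPM with forskolin and the inhibitor, 30590 to 35790 with Fgf10 and 44540 to 45050 with Fgf1. Their sums did not overlap, but 0 of 7 were called in either comparison (median log2 fold changes -0.06 and -0.11). The part of these lists in the Cyp26b1 difference was not tested.

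**Figure D4:**
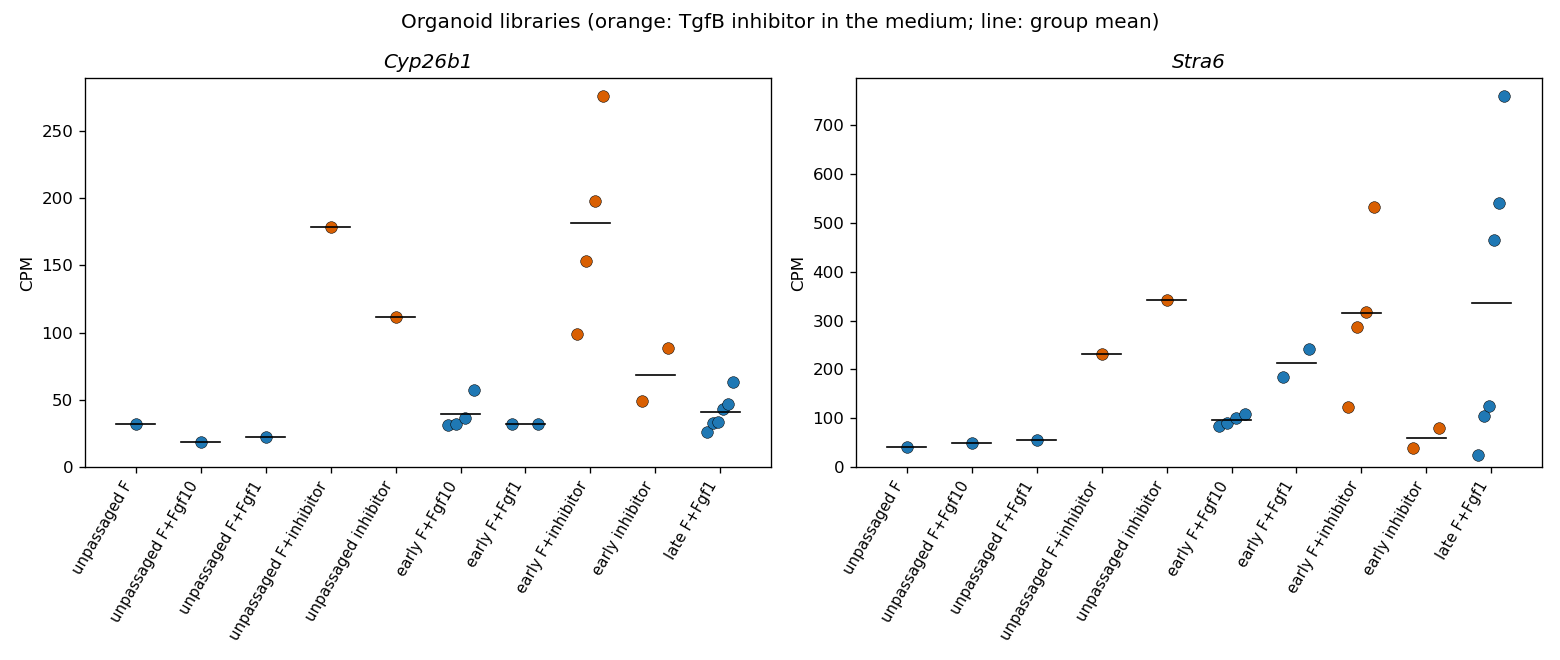
CPM of Cyp26b1 (left) and Stra6 (right) in each of the 23 organoid libraries by stage and medium, with orange points for media with the TgfB inhibitor and a line at the group mean. Cyp26b1 lies between 18.9 and 63.0 in the 15 libraries without the inhibitor and between 98.6 and 276 in the 5 with forskolin and the inhibitor, while Stra6 also reaches 758 in late organoids without it.

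Unpassaged organoids hold the direct pair, forskolin with and without the inhibitor, at 1 library each. There is no replicate here, so intervals cover counting error only and no test was made. Cyp26b1 was at 179 CPM with and 32.4 CPM without the inhibitor, a ratio of 5.51 (95% exact interval 4.12 to 7.49). Stra6 was at 231 and 41.6 CPM, a ratio of 5.54 (4.29 to 7.26), and Rdh10 at 24.6 and 9.18 CPM, a ratio of 2.68 (1.48 to 5.12). These 3 members were past 2-fold, as were 11.9% of the 8544 genes with 20 or more counts in the pair on the higher side and 6.32% on the lower.

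Smaller ratios were seen for the remaining members. Aldh1a3 was at 61.7 and 41.0 CPM (1.503, 1.11 to 2.05), Rarg at 170 and 111 (1.53, 1.28 to 1.84), and Crabp2 at 1175 and 870 (1.35, 1.26 to 1.44). Rara had 9 counts in each library (0.787, 0.277 to 2.24) and Dhrs9 had 1 count against 0. The median log2 ratio over the 8544 genes was 0.20. Fibroblast-list genes summed to 16.9 CPM with and 234 without the inhibitor.

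Against unpassaged forskolin with Fgf10 or Fgf1, forskolin with the inhibitor gave ratios of 9.45 (6.35 to 14.7) and 7.99 (5.25 to 12.8) for Cyp26b1, and of 4.67 (3.61 to 6.11) and 4.16 (3.16 to 5.58) for Stra6. Fgf10 or Fgf1 added to forskolin gave Cyp26b1 ratios of 0.583 (0.350 to 0.948) and 0.689 (0.403 to 1.14), and Stra6 ratios of 1.19 (0.836 to 1.69) and 1.33 (0.920 to 1.92). Aldh1a3 was lower with either growth factor, at ratios of 0.213 (0.105 to 0.397) and 0.284 (0.140 to 0.530) to forskolin alone. The inhibitor effect on Cyp26b1 relative to Fgf10 did not pass a test of difference between stages (early 2.06, unpassaged 3.11, difference -1.06 ± 0.72, edgeR adjusted p = 0.96). For Rdh10 the early and unpassaged values were -0.03 and 3.89 (difference -3.91 ± 1.39, adjusted p = 0.862), and the unpassaged value rests on 2 counts in the 1 Fgf10 library.

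Forskolin itself was tested in early organoids with the inhibitor present in both groups. None of the 8 members, and 0 of 9919 genes (0%), passed edgeR's test, with 623 genes and 2 members at an unadjusted p under 0.05, and DESeq2 called 24 genes and no member. Cyp26b1 was at 49.0 and 88.7 CPM with the inhibitor alone, below each of the 4 libraries that also had forskolin (log2 fold change 1.33 ± 0.42, adjusted p = 0.491). In unpassaged organoids it was at 111 CPM with the inhibitor alone, a ratio of 1.60 (1.36 to 1.89) for forskolin with the inhibitor to it. The 3 libraries with the inhibitor alone, at 49.0 to 111 CPM, overlapped the 15 without it, at 18.9 to 63.0.

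For Stra6 this contrast pointed opposite ways at the 2 stages. With the inhibitor alone it was at 40.0 and 81.2 CPM in early organoids, below each of the 4 libraries with forskolin (2.32 ± 0.89, adjusted p = 0.656), and at 341 CPM in the unpassaged library, above the 231 CPM with forskolin. The difference between the stages was 2.89 ± 0.80 on the log2 scale (edgeR adjusted p = 1.0), with 273 of 9984 genes at an unadjusted p under 0.05 and none after adjustment. Of 32 pathway genes none passed in early organoids, with 1 at an unadjusted p under 0.05 and none by DESeq2.

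Passaging was compared within 4 media, early against unpassaged. The 4 unpassaged libraries came in 1 count table, with replicate 1 of early Fgf10 and replicate 1 of early Fgf1. The remaining early libraries came in another. Effects of passaging and of the count table can therefore hardly be told apart here. Of 8 members tested, Rarg was called, where 11.4% of 9984 genes were called, 5.10% higher and 6.28% lower. Rarg was at 121 to 170 CPM in the 4 unpassaged libraries and 145 to 302 in the 12 early ones, and the ranges overlapped (log2 fold change 0.59 ± 0.17, edgeR adjusted p = 0.0306). Leaving out an unpassaged library also took out the early libraries of its medium, which then had no partner. The call was lost without each of the 4 media in turn (adjusted p 0.0556 to 0.162). It was also lost without replicate 2 of early inhibitor alone (0.0543) and with no filter on low counts (0.0506). Cyp26b1 (0.27 ± 0.28, adjusted p = 0.559), Stra6 (0.19 ± 0.51, 0.843) and Crabp2 (0.34 ± 0.33, 0.518) did not pass. Dhrs9 was at 0.482 to 1.35 CPM in unpassaged and 0 to 10.2 in early organoids (2.09 ± 0.79, adjusted p = 0.0892). It passed with no filter on low counts (0.0278) or without replicate 2 of early inhibitor alone (0.0396).

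Among 34 pathway genes tested for passaging, 3 rose and 2 fell. Krt4 rose by 3.92 ± 1.14 (adjusted p = 0.0338), Rdh9 by 2.18 ± 0.66 (adjusted p = 0.0414) and the corepressor Ncor1 by 0.74 ± 0.17 (adjusted p = 0.00997). Adh1 fell by 2.48 ± 0.58 on the log2 scale (edgeR adjusted p = 0.0120) and Rarres1 by 1.63 ± 0.39 (adjusted p = 0.0135). All 5 lost their call without the unpassaged Fgf10 library, which took the early Fgf10 libraries out with it (adjusted p 0.0533 to 0.217). Krt4, Rdh9 and Ncor1 lost it without 1 or more of the other media as well (0.0553 to 0.162). Rdh9 also lost it without any 1 of 5 early libraries (0.0518 to 0.0775). These were replicates 3 and 4 of Fgf10, replicate 2 of Fgf1 and both with the inhibitor alone. Adh1 thus fell here and was at 0 in the late libraries.

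Over the 13 groups the members ranked the groups differently. The mean of Cyp26b1 was highest in anagen follicles at 187 ± 111 CPM (SD, n = 3) and in early organoids with forskolin and the inhibitor at 181 ± 75.0 (n = 4), which did not differ beyond their spread, and lowest in sorted epidermis at 1.87 ± 2.18 (n = 3). Stra6 was highest in the unpassaged library with the inhibitor alone at 341 and in late organoids at 337 ± 294 (n = 6), and lowest in epidermis at 0.451 ± 0.781. Crabp2 had its 10 highest group means, 437 to 1175 CPM, in the 10 organoid groups, against 25.0 to 131 in the 3 tissue groups. Rarg was highest in late organoids at 430 ± 161 and sorted epidermis at 332 ± 61.5, which overlapped, and lowest in mixed follicles at 75.2 ± 26.7, and Rara had the same groups at both ends (23.9 ± 10.2, 20.3 ± 8.64 and 4.05 ± 2.21). Dhrs9 did not exceed a mean of 5.60 CPM in any group, and its largest count was 19.

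The genes most alike to each member were taken as those with the smallest root mean square difference in centred log2 mean CPM over the 13 groups, among 10257 genes, which describes likeness of levels only. For Cyp26b1 they were Plk3 (0.760), Ckb (0.784) and Anxa9 (0.792), against a spread of Cyp26b1 itself of 1.61. For Stra6 they were Klk13 (0.792), Cxcl5 (0.979) and Elf3 (1.10), against a spread of 2.27. For Crabp2 they were Slc5a1 (0.486), Lipk (0.543) and Lce3d (0.603), for Aldh1a3 Phlda1 (0.581), Tubb2b (0.661) and Ppard (0.668), and for Rdh10 Slc22a23 (0.399), Hopx (0.414) and Shroom3 (0.455). Rarg was closest to Ict1 (0.209) and Rara to Arhgef19 (0.227), and no member was among the 3 nearest genes of another.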

How the data were processed

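Libraries were made by CEL-seq2 from cells taken up in Trizol and sequenced with 75 bp paired ends on a NextSeq500, per the labels' protocols. The submitters' processing notes name BWA, version 0.6.2-r126, and the build mm10. How reads were counted, on which annotation and whether with molecular identifiers is not given in the sources used here. Each library has 1 deposited file of whole-number counts per gene. Spike-in rows were left out, and 19970 gene names remained. Aldh1a3 had no row in epidermis replicates 2 and 3 and late replicates 1 and 2, and was set to 0 there. So was Dhrs9, which had no row in replicates 1 and 2 of epidermis and of late organoids.

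Tests used the quasi-likelihood method of edgeR (version 4.0.16, R 4.3.3) after TMM scaling and filterByExpr (minimum count 10, minimum total 15), with Benjamini-Hochberg adjustment over all genes at 0.05. An SE is the log2 fold change divided by the square root of the test's F. Fits held 17 libraries (tissue with early and late Fgf1 organoids, 10843 genes), 18 (passaged organoids, 9919) and 16 (early against unpassaged with medium as a term, 9984). Floors are 3 counts, and floors and intervals cover counting error only. The test was checked on simulated counts. Alternatives were DESeq2 1.42.0, other scalings, no filter, fits of the compared groups alone, a replicate block and leaving out each library. For passaging, leaving out an unpassaged library also took out the early libraries of its medium. A fit of the 9 tissue libraries alone was added after seeing the data.

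The 8 members always appear, with up to 6 other pathway genes per comparison that passed, largest first; Rxra, Rxrb, Adh1, Rdh9 and Dhrs3 beyond these were chosen after their values were seen. Some genes of the lists are not reported here and are in no list count. Members and lists were chosen with earlier results of these data known. The libraries came in 11 count tables told apart by their gene lists. Every pair of replicates differed by more than sampling noise (chi-square per degree of freedom 3.47 to 69.5), and the labels name no animals or cultures behind the replicates. The p-values therefore cover only the differences between these libraries, which may be technical.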

Additional observations from a re-analysis of the deposited data

Results flagged for a closer look

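A single library stood apart from its group for 2 members, among 24 groups tested with Dixon's criterion, which chance passes in about 1 of 20. Rdh10 was at 61.7 CPM in late replicate 3, where the gap to the next library was 0.649 of the group's range (critical value 0.625). Rarg was at 222 CPM in replicate 3 of early organoids with forskolin and Fgf10, where the gap was 0.847 of the range (critical value 0.829).

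For 2 members a contrast had no overlap among early libraries and the opposite sign in unpassaged organoids. Signs also differed where the early ranges overlapped, for contrasts of Aldh1a3, Rdh10, Crabp2, Rarg and Dhrs9. Aldh1a3 with forskolin and the inhibitor minus forskolin and Fgf10 was -0.44 in early and 2.69 in unpassaged organoids. For Stra6, forskolin with the inhibitor minus the inhibitor alone was 2.33 in early and -0.56 in unpassaged organoids on the log2 scale, a difference of 2.89 (edgeR adjusted p = 1.0). For Dhrs9, forskolin with the inhibitor minus forskolin with Fgf1 was 2.48 and -1.05, a difference of 3.54 (adjusted p = 0.962), with 1 count in each unpassaged library.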

How the results depend on the processing

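No value called in the results changed sign under any alternative run. Of 822 recomputed member values, 771 kept their side of the threshold, 34 lost and 17 gained a call, and of 498 values of named pathway genes 65 lost one. Cyp26b1 kept its call under every alternative for both kinds of follicle and for late organoids against epidermis, and for the inhibitor against Fgf10.

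The number of members called in anagen follicles against epidermis, 1 as reported, was 3 with no filter on low counts, 2 with DESeq2, 2 with the replicate block and 3 in the tissue libraries alone, and 1 to 2 on leaving out a library. It was 2 to 3 on leaving out a library for mixed follicles against epidermis (4 as reported), and 0 to 1 for anagen against mixed follicles (1). For late organoids against epidermis (5) it was 3 in the compared groups alone, where Aldh1a3 and Rdh10 were not tested. It was 3 to 5 there on leaving out a library. For the inhibitor against Fgf10 (1) the number of members called was 2 in the compared groups alone. It was 0 to 1 on leaving out a library for the inhibitor against Fgf1 (1) and for passaging (1).

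Over all genes, the count for anagen against mixed follicles (719) was 1292 in the tissue libraries alone and 400 to 662 without a library. For late organoids (2360) it was 1377 in the compared groups alone and 1296 to 2547 without a library. For the inhibitor against Fgf10 (57) it was 115 with no filter, 138 with DESeq2, 123 in the compared groups alone and 17 to 47 without a library. Against Fgf1 (59) it was 103, 109 and 163 in these settings, 32 with the replicate block and 10 to 28 without a library. For forskolin (0) it was 19, 24 and 5, 33 with the block and 0 to 16 without a library, and for passaging (1136) it was 202 to 1351 without a library. For passaging, a left-out unpassaged library took the early libraries of its medium with it. The cause of these changes in number was not tested. Leaving a group with 1 library assumes that it varies like the others.

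Replicate numbers did not pair the samples (correlations of deviations -0.176 to 0.325). With the replicate block the members called in the other comparisons stayed within 1.5 times, while Krt4 in late organoids went to 0.4 (adjusted p = 0.837), Stra6 in anagen (adjusted p = 0.0379) and Rdh10 in mixed follicles (0.0319) gained a call, and Aldh1a3 in late organoids (0.0590) and Rdh9 in mixed follicles (0.0512) lost one. No paired analysis was possible for passaging because early and unpassaged groups share only replicate number 1. Low counts limit Dhrs9, Aldh1a3, Rdh10 and Stra6 in the shallow epidermis libraries.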
